A study of Mus musculus with 9 samples.

Results

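MHC class II molecules present peptides taken from endosomes to CD4+ T cells, and 9 genes of this pathway are described here in sorted mouse intestinal stem cells. They code for the chains of the class II molecule (H2-Aa, H2-Ab1, H2-Eb1), the invariant chain (Cd74), the peptide-loading molecule H2-M (H2-DMa, H2-DMb1, H2-DMb2), the transactivator of these genes (Ciita) and cathepsin S (Ctss). The genes were chosen as a list of symbols, and their rows were found by matching Ensembl identifiers to GENCODE release M21, which gave 9 of 57180 identifiers in the count table. Of the 9, 8 passed the filter on low counts and were tested; H2-DMb2 did not pass.

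An alpha and a beta chain pair in the endoplasmic reticulum around the invariant chain, which blocks the peptide groove and carries the complex to endosomes. Cathepsin S trims the invariant chain there down to a short fragment, and H2-M exchanges that fragment for peptide. Ciita binds no DNA itself but is recruited by the factors RFX, CREB and NF-Y, which sit on X and Y boxes in class II promoters, and interferon gamma induces it. Class II is best known from dendritic cells, macrophages and B cells, and the epithelium of the small intestine, Lgr5+ stem cells included, is also known to make it.

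The 9 libraries came from Lgr5-GFP+ cells of the small intestine of mice carrying an Lgr5-EGFP-CreERT2 allele and loxP-flanked Kansl1 (Kansl1 f/f). The groups were KANSL1-KO after daily tamoxifen for 4 days (KO day 4), KANSL1-KO after daily tamoxifen for 3 days (KO day 3) and corn oil, labelled KANSL1-WT (control), with 3 libraries each. KANSL1 is the scaffold of the NSL histone acetyltransferase complex. The Lgr5 promoter drives both the Cre recombinase and the GFP used for sorting, so recombination and the sort depend on the same promoter. All KO mice had tamoxifen and no control had, so loss of Kansl1 and the drug cannot be told apart, nor can an additional day after the knockout and an additional dose. The sources used here state neither strain nor age. They do not tell whether the replicates are different animals; a p-value thus covers the spread among these libraries only, and that spread may be technical.

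Kansl1 had 2.93, 5.09 and 8.96 CPM (counts relative to the library total after scaling by TMM factors) in the libraries labelled KO day 4, 2.81, 2.99 and 2.55 CPM in KO day 3 libraries, and 4.46, 11.4 and 9.83 CPM in controls. The KO day 3 libraries all lay below the controls, while, of the libraries labelled KO day 4, replicates 2 and 3 lay within the range of the controls, and they are referred to by their labels throughout. Against control the log2 fold change was -0.63 at day 4 (SE 0.46) and -1.62 at day 3 (SE 0.45), with edgeR adjusted p of 0.34 and 0.12. The deleted exons are not stated in the sources used here, so counts over the whole gene check the labels only in part.

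Totals were 11174583 to 16943055 counts at KO day 4, 8400458 to 21484679 at KO day 3 and 12164479 to 17913787 in controls. Transcripts of the mitochondrial genome took 66.9% to 72.1%, 19.0% to 32.4% and 16.4% to 25.8% of them in KO day 4, KO day 3 and control libraries, which left 2569792 to 4773059, 6617721 to 14305963 and 9817163 to 13735171 nuclear counts. KO day 4 replicate 3 and KO day 3 replicate 1 were unlike their groups. Across genes (log2 CPM, a description of each library) the correlation with the group was 0.857 and 0.863 for KO day 4 replicate 3 and 0.914 and 0.910 for KO day 3 replicate 1, where control libraries correlated at 0.969 to 0.973. Results that rest on these libraries are given with and without them. The summed level of 7 epithelial markers (Epcam, Cdh1, keratins and others) was 8101 to 8429 CPM of nuclear counts at KO day 4, 6867 to 7680 at KO day 3 and 7855 to 8103 in controls. The sum hid opposite changes: against control, Krt18 (1.74) and Krt8 (0.70) rose and Epcam (-1.04) and Cdh1 (-0.64) fell at KO day 4 on the log2 scale by edgeR, and 0 of the 7 were called at KO day 3. That of 6 stem cell markers, Lgr5 and Olfm4 among them, was 3182 to 8579 at KO day 4, 12681 to 18528 at KO day 3 and 18849 to 22449 in controls, and 4 of the 6 were lower at KO day 4 than in controls by edgeR. Of all tested genes, 22.5% were called at KO day 4 against control, 11.1% higher and 11.5% lower than in controls. At KO day 3 against control, 0.44% of all tested genes were called.

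Of the 9 genes, 6 lie in the class II region of chromosome 17 (GRCm38, counted from 1): H2-DMa (ENSMUSG00000037649) at 34119541 to 34139101, H2-DMb2 (ENSMUSG00000037548) at 34143307 to 34151555, H2-DMb1 (ENSMUSG00000079547) at 34153072 to 34160230, H2-Ab1 (ENSMUSG00000073421) at 34257689 to 34269419, H2-Aa (ENSMUSG00000036594) at 34282744 to 34287823 and H2-Eb1 (ENSMUSG00000060586) at 34305867 to 34316674. H2-Aa is on the minus strand and the others on the plus strand. Whether the counting used strand is not known, so values of H2-DMa, which shares 360 exonic bases with Brd2 on the opposite strand, and of Ciita, which shares 329 with Dexi, may hold reads of those genes. H2-DMb1 and H2-DMb2 are near-identical copies, and their reads may have been split or lost.

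RefSeq promoter windows (GRCm38.p6, 300 bases, 250 before to 50 after the gene start) were available for 6 of the 9 genes, H2-DMa with a pair of starts, which makes 7 windows. The Y box, searched as ATTGG on both strands, was in 5 of the 7, against 37.4% of 32851 windows of all genes. A 90-base stretch around the Y box is shown for the 4 genes that also hold an X element in front of it, to show the X and Y arrangement through which these promoters are known to recruit Ciita. Capitals mark the X element and the Y box, 5′ to 3′ on the strand of the gene.
H2-DMb2, chr17:34145099-34145188, plus strand: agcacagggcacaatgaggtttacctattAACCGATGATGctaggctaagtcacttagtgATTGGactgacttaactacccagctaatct
H2-DMb1, chr17:34153070-34153159, plus strand: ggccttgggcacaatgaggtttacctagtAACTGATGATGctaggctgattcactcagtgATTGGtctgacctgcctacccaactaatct
H2-Aa, chr17:34287842-34287931, minus strand: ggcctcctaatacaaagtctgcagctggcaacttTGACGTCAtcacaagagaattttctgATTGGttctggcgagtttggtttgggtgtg
H2-Eb1, chr17:34305748-34305837, plus strand: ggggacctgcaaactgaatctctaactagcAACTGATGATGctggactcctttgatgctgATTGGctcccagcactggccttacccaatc

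In H2-DMb2, H2-DMb1 and H2-Eb1 the X element reads AAC, any base, GATGATG, and it ends 20, 20 and 19 bases before the Y box. H2-Aa has TGACGTCA, the consensus of the cAMP response element that CREB binds, 18 bases before it. The first base of the Y box lies 90, 61, 59 and 48 bases before the RefSeq start of H2-DMb2, H2-DMb1, H2-Eb1 and H2-Aa. AAC, any base, GATGATG was in 20 of the 32851 windows (0.0609%), and TGACGTCA in 1.79%. A Y box stood 5 to 40 bases behind AAC, any base, GATGATG in 3 of the 20. These 3 are the windows of H2-DMb2, H2-DMb1 and H2-Eb1 themselves. Both X elements were written down after these windows had been read, so their matches describe the letters shown and nothing more. The X core chosen earlier, GNAACAG, was in 1 of the 7 windows (H2-DMb1), against 18.8% of all windows, and stood in front of a Y box in 0 of the 7, against 0.752%.

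The invariant chain and the class II chains had their highest levels at KO day 3. Cd74 (ENSMUSG00000024610) lies on chromosome 18 at 60803848 to 60812652, plus strand. It was at 22.5, 70.6 and 257 CPM in KO day 4 replicates 1 to 3, at 429, 593 and 801 CPM in KO day 3 and at 129, 304 and 63.5 CPM in controls. Every KO day 3 library lay above every other library, and the KO day 4 and control libraries overlapped. H2-Aa, the alpha chain of the molecule I-A, was at 5.27, 8.43 and 56.2 CPM at KO day 4, at 149, 254 and 360 CPM at KO day 3 and at 35.4, 64.4 and 11.2 CPM in controls. H2-Ab1, the beta chain of I-A, was at 7.27, 25.8 and 99.9 CPM at KO day 4, at 185, 311 and 435 CPM at KO day 3 and at 75.1, 129 and 25.6 CPM in controls. H2-Eb1, the beta chain of the second molecule, I-E, was at 4.45, 10.5 and 85.3 CPM at KO day 4, at 175, 201 and 290 CPM at KO day 3 and at 30.05, 71.8 and 16.7 CPM in controls. All 3 chains had the same order as Cd74, with replicate 3 highest in both KO groups and replicate 2 highest in the controls. The alpha chain partner of H2-Eb1, which many laboratory strains do not make, is annotated as the pseudogene H2-Ea-ps and had 2 counts in KO day 3 replicate 2 and 0 in the other libraries.

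The peptide-loading genes and the transactivator followed the same order of groups at lower levels. H2-DMa was at 3.63, 2.23 and 13.0 CPM at KO day 4, at 45.7, 47.0 and 63.4 CPM at KO day 3 and at 15.02, 26.6 and 7.4996 CPM in controls. H2-DMb1 was at 0.82, 2.23 and 13.7 CPM at KO day 4, at 15.9, 27.7 and 52.9 CPM at KO day 3 and at 8.58, 14.5 and 4.09 CPM in controls. H2-M needs both an alpha chain, from H2-DMa, and a beta chain, from H2-DMb1 or H2-DMb2, and the libraries lowest and highest in H2-DMb1 at KO day 3 and in controls were the same as for H2-DMa. H2-DMb2 had 0 counts in all KO day 4 libraries, 0, 2 and 13 counts at KO day 3 and 6, 2 and 0 counts in controls. Ciita (ENSMUSG00000022504, chromosome 16, 10480059 to 10528418, plus strand) was at 0.23, 0 and 6.27 CPM at KO day 4 (2, 0 and 28 counts), at 8.10, 14.0 and 16.6 CPM at KO day 3 and at 2.14, 4.49 and 1.35 CPM in controls. The KO day 4 values of Ciita therefore rest on 30 counts in all, 28 of them in the library labelled KO day 4 replicate 3.

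Cathepsin S was the exception among the 8 tested genes. Ctss (ENSMUSG00000038642, chromosome 3, 95526786 to 95556403, plus strand) was at 7.38, 3.02 and 3.13 CPM at KO day 4, at 16.8, 9.58 and 12.4 CPM at KO day 3 and at 30.6, 29.1 and 23.9 CPM in controls. The groups did not overlap in any pair, and replicate 1, which was lowest for the class II chains in both KO groups, had the highest Ctss in every group.

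**Figure D1:**
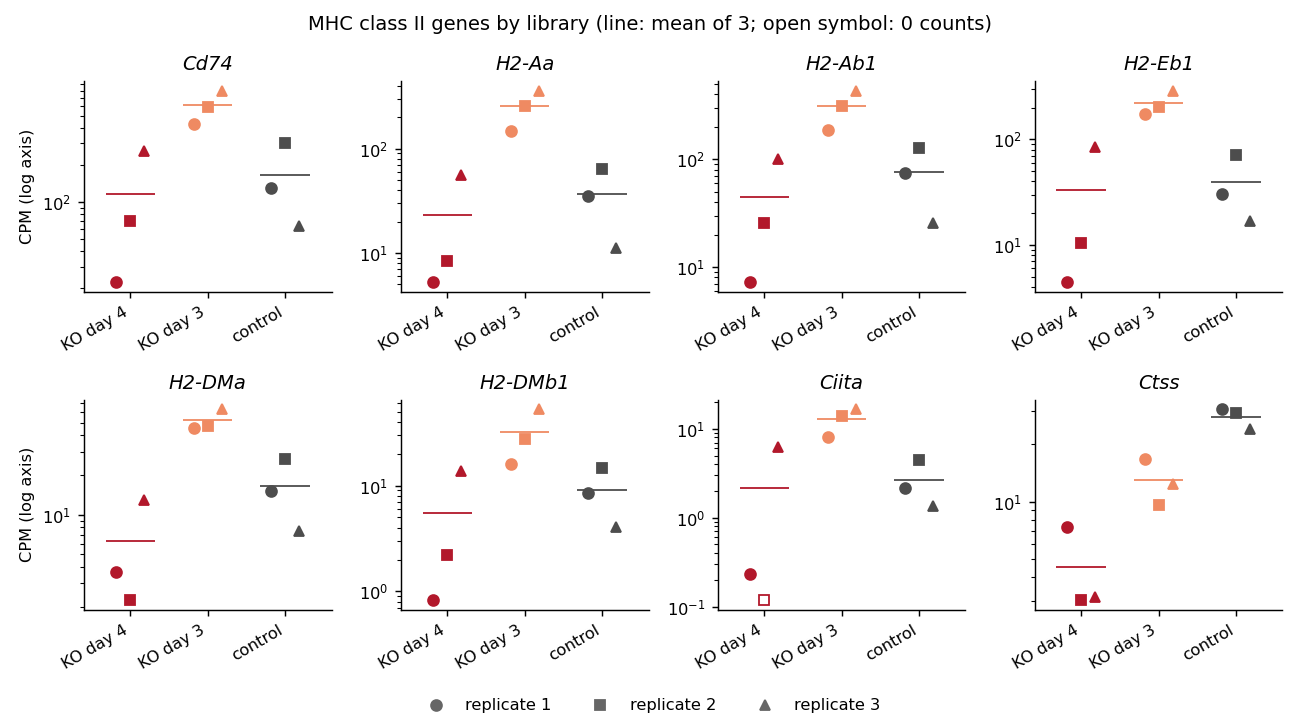
Level of each tested gene (CPM, log axis) in the 3 libraries of KO day 4 (left), KO day 3 (middle) and control (right), with the mean of 3 as a line; symbols mark the replicate number and an open symbol a library with 0 counts. For all genes but Ctss the KO day 3 libraries lie above the others and KO day 4 replicate 3 lies above the other KO day 4 libraries, whereas Ctss is highest in controls.

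At KO day 3 against control, 0 of the 8 tested genes passed the threshold (edgeR quasi-likelihood test, Benjamini-Hochberg adjusted p under 0.05), where 0.44% of 13405 tested genes were called, 0.142% higher and 0.298% lower. At an unadjusted p under 0.05, all 8 passed, against 15.8% of all genes. The DESeq2 test called 2 (H2-DMa and Ctss) where it called 6.53% of all genes, and limma voom with sample weights called 8 where it called 10.6%. The libraries did not overlap for 8 of 8, 7 with KO day 3 above and Ctss with KO day 3 below. Among all tested genes, 30.1% did not overlap, 12.1% with KO day 3 above and 18% with KO day 3 below. The log2 fold change was 2.78 for H2-Aa (SE 0.80, edgeR adjusted p = 0.13), which was 6.86-fold and the largest of the 8, and 2.49 for H2-Eb1 (SE 0.84, edgeR adjusted p = 0.18). For Ciita it was 2.27 (SE 0.90, edgeR adjusted p = 0.25), for H2-Ab1 2.02 (SE 0.76, edgeR adjusted p = 0.23) and for Cd74 1.88 (SE 0.73, edgeR adjusted p = 0.24). H2-DMb1 had 1.83, H2-DMa 1.66 and Ctss -1.11. The median over the 8 was 1.95, against -0.02 over all tested genes.

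The low number of calls at KO day 3 depended on which libraries entered the fit. Without KO day 4 replicate 3, which enters this contrast through the shared estimate of the spread, 3 genes were called higher, H2-Aa (2.78), H2-Eb1 (2.49) and Ciita (2.27), with 2.49% of all genes called. Without KO day 4 replicate 3 and KO day 3 replicate 1 together, 6 were called, 5 higher and Ctss lower at -1.34, with 4.73% of all genes called. Without KO day 3 replicate 1 alone none was called, with a median of 2.22.

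At KO day 4 against control, Ctss was the 1 gene of 8 called, against 22.5% of all tested genes and 11.5% called lower. It averaged 4.51 ± 2.49 CPM at KO day 4 and 27.9 ± 3.52 CPM in controls (SD, n = 3 each), a log2 fold change of -2.58 (SE 0.36, edgeR adjusted p = 0.0011), and was called lower in all 19 alternatives tried. Ctss was also the only 1 of the 8 whose libraries did not overlap, against 47% of all genes, 26.4% with KO day 4 below. The other 7 had log2 fold changes from -1.46 (H2-DMa, SE 0.58, edgeR adjusted p = 0.091) to -0.28 (H2-Eb1, SE 0.83, edgeR adjusted p = 0.84). For all 7, KO day 4 replicate 3 lay above the lowest control, and for Cd74 and H2-Ab1 KO day 4 replicate 2 did too. Without KO day 4 replicate 3, 6 were called lower, with 19.4% of all genes called: Ciita at -4.27, H2-DMb1 at -2.64, H2-DMa at -2.47, H2-Aa at -2.46, H2-Eb1 at -2.44, and Ctss. Without control replicate 2, Cd74 (0.26), H2-Eb1 (0.47) and Ciita (0.13) had the opposite sign and did not pass, and H2-Eb1 and Ciita also changed sign without KO day 4 replicate 1 (0.25 and 0.13) or replicate 2 (0.14 and 0.12). With libraries scaled by total counts alone, all 8 were called lower, but that scaling put the median of all genes at -1.95 and called 82.5% of them.

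Between the 2 KO times, 4 of the 8 genes fell, H2-Aa, H2-Ab1, H2-DMa and Ctss, against 12.5% of all tested genes called, 6.03% lower and 6.52% higher. H2-DMa averaged 6.28 ± 5.85 CPM at KO day 4 and 52.0 ± 9.85 CPM at KO day 3 (SD, n = 3 each), a log2 fold change of -3.12 (SE 0.59, edgeR adjusted p = 0.0094). For H2-Aa the log2 fold change was -3.50 (SE 0.84, edgeR adjusted p = 0.024), for H2-Ab1 -2.84 (SE 0.80, edgeR adjusted p = 0.040) and for Ctss -1.47 (SE 0.35, edgeR adjusted p = 0.024). H2-Eb1 at -2.77, Ciita at -2.76, H2-DMb1 at -2.64 and Cd74 at -2.39 did not pass, with edgeR adjusted p of 0.059, 0.093, 0.058 and 0.059. For all 8 the KO day 4 libraries lay below the KO day 3 libraries, against 32.8% of all genes not overlapping and 17% with KO day 4 below. The median was -2.77, against -0.02 over all genes.

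H2-DMa was called lower at KO day 4 than at KO day 3 in all 19 alternatives tried. H2-Aa was not called without KO day 3 replicate 2 (edgeR adjusted p = 0.058), KO day 3 replicate 3 (0.052) or KO day 4 replicate 2 (0.079), and was called in the other 16 alternatives, with adjusted p from 5.90e-05 to 0.079 over all 19. H2-Ab1 was not called in 7 of the 19, with adjusted p from 0.00017 to 0.12 over all 19. It lost its call without control replicate 1, KO day 3 replicate 2 or 3, or KO day 4 replicate 1 or 2, at edgeR adjusted p of 0.056, 0.086, 0.088, 0.059 and 0.12, with a minimum mean CPM of 5 (0.051) and in the fit of the 2 groups alone (0.056). Ctss was not called in 6 of the 19, with adjusted p from 4.395e-05 to 0.088. It lost its call without KO day 3 replicate 1 (edgeR adjusted p = 0.056), KO day 4 replicate 2 (0.077) or KO day 4 replicate 3 (0.067), without both libraries that stood apart (0.088), in the fit of the 2 groups alone (0.074) and by limma voom (0.071). Leaving out KO day 4 replicate 3 called the 7 genes other than Ctss, where 7.29% of all genes were called, and leaving out KO day 4 replicate 2 called H2-DMa alone, where 6.64% were. The 3 contrasts share their libraries, so the high level at KO day 3 enters both contrasts that hold it.

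**Figure D2:**
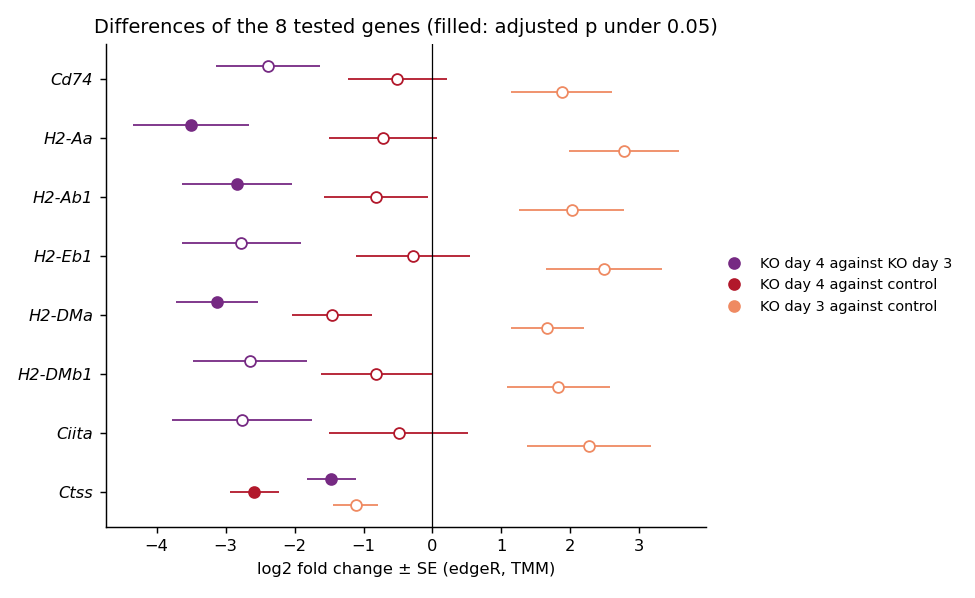
Log2 fold change with its standard error (edgeR, TMM scaling, n = 3 libraries a group) of the 8 tested genes for KO day 4 against KO day 3, KO day 4 against control and KO day 3 against control; filled points passed an adjusted p of 0.05. H2-Aa, H2-Ab1, H2-DMa and Ctss are filled for KO day 4 against KO day 3, Ctss alone for KO day 4 against control, and none for KO day 3 against control.

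Levels between genes were compared per kilobase of the principal transcript. In KO day 4 libraries Cd74 averaged 82.9 ± 88.0 CPM per kilobase, H2-Ab1 36.5 ± 40.4, H2-Aa 20.7 ± 25.3 and H2-Eb1 20.0 ± 27.0 (SD, n = 3). Below them came H2-DMb1 at 3.97 ± 5.02, H2-DMa at 3.79 ± 3.53, Ctss at 3.33 ± 1.84 and Ciita at 0.36 ± 0.59 CPM per kilobase. At KO day 3 Cd74 averaged 431 ± 132, H2-Ab1 256 ± 103, H2-Aa 226 ± 93.8, H2-Eb1 133 ± 36.2, H2-DMa 31.4 ± 5.94, H2-DMb1 22.9 ± 13.4, Ctss 9.55 ± 2.68 and Ciita 2.15 ± 0.73 CPM per kilobase. The invariant chain was thus the highest of the 9 in mean level and Ciita the lowest of the 8 tested, while Ctss took different ranks. In controls Cd74 averaged 117 ± 88.0, H2-Ab1 63.1 ± 42.6, H2-Aa 32.8 ± 23.6, H2-Eb1 23.7 ± 17.2, Ctss 20.6 ± 2.59, H2-DMa 9.88 ± 5.81, H2-DMb1 6.46 ± 3.74 and Ciita 0.44 ± 0.27 CPM per kilobase. Of the steps between neighbours in these orders, the one above Ciita exceeded the larger SD of its pair in every group. At KO day 3 so did the steps from Cd74 to H2-Ab1 and from H2-Eb1 to H2-DMa, and in controls the step from Ctss to H2-DMa; no other step did. With the merged length of all annotated exons H2-Aa, at 9.75 CPM per kilobase in controls, came below Ctss and H2-Eb1, at 20.5 and 20.3.

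Relative to the invariant chain in the same library, the I-A alpha chain stood higher at KO day 3 than in the other groups. H2-Aa counts were 23.4%, 11.9% and 21.8% of Cd74 counts at KO day 4, 34.7%, 42.9% and 45.0% at KO day 3 and 27.5%, 21.2% and 17.7% in controls. H2-Eb1 counts were 19.8%, 14.9% and 33.1% of Cd74 counts at KO day 4, 40.7%, 33.8% and 36.2% at KO day 3 and 23.3%, 23.6% and 26.3% in controls. For both genes the KO day 3 libraries lay above all others, and for H2-Eb1 KO day 4 replicate 3 came within a percentage point of the lowest of them. H2-Ab1 counts were 32.3%, 36.5% and 38.8% of Cd74 counts at KO day 4, 43.2%, 52.5% and 54.3% at KO day 3 and 58.3%, 42.4% and 40.2% in controls, where KO day 3 and control overlapped. H2-DMa ranged from 3.15% to 16.1% of Cd74 counts at KO day 4, from 7.91% to 10.7% at KO day 3 and from 8.77% to 11.8% in controls. Ciita ranged from 0% to 2.43%, 1.89% to 2.35% and 1.48% to 2.12% of Cd74 counts in those groups, and the groups overlapped. Ctss counts were 32.8%, 4.28% and 1.22% of Cd74 counts at KO day 4, 3.92%, 1.62% and 1.55% at KO day 3 and 23.8%, 9.60% and 37.7% in controls.

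**Figure D3:**
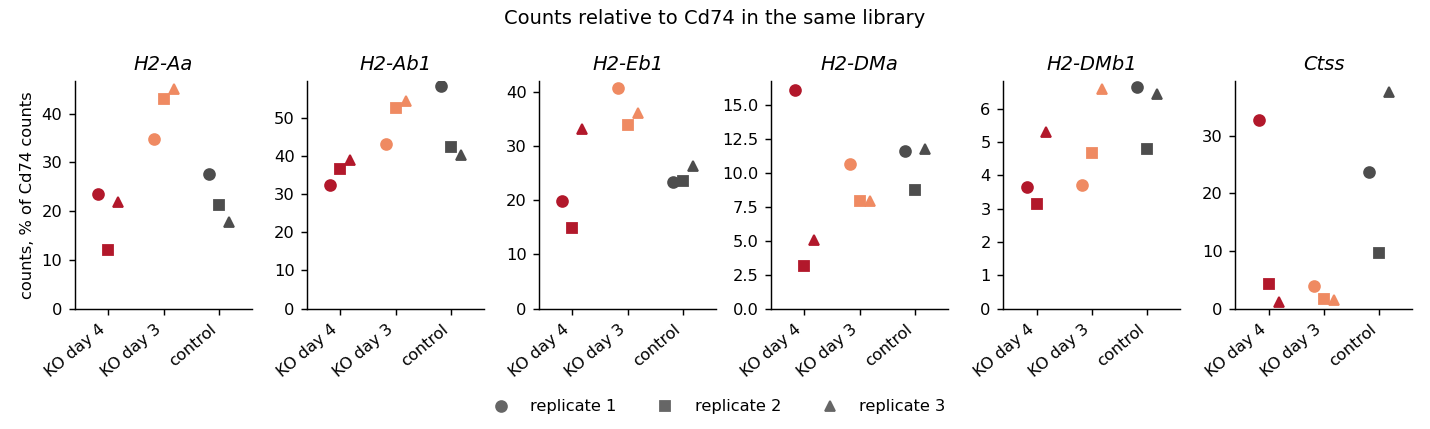
Counts of 6 genes as a percentage of Cd74 counts in the same library (axes start at 0), for KO day 4 (left), KO day 3 (middle) and control (right); symbols mark the replicate number. H2-Aa and H2-Eb1 are highest in the KO day 3 libraries, at 34.7% to 45.0% and 33.8% to 40.7%, and Ctss is lowest there apart from KO day 4 replicate 3, at 1.22%.

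In controls and at KO day 4, the genes of the class II chains and Cd74 varied more between libraries than most genes did. In controls the SD of log2 CPM was 1.13 for Cd74, 1.27 for H2-Aa, 1.18 for H2-Ab1, 1.05 for H2-Eb1 and 0.84 for Ciita, against a median of 0.17 over 8750 genes with a mean CPM of at least 5. These SDs stood at the 97.8th to 99.4th percentile, and that of Ctss, 0.19, at the 57.5th. At KO day 4 the SD was 1.76 for Cd74 and 2.18 for H2-Eb1, against a median of 0.32, and at KO day 3 it was 0.45 and 0.38, against 0.29. Over the tested genes at KO day 3 it ran from 0.26 for H2-DMa, at the 44.9th percentile, to 0.86 for H2-DMb1, at the 94.5th. In each group the class II chains, H2-DMb1 and Cd74 put the libraries in the same order, so the differences between replicates were shared by the genes.

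A list of genes outside the 9 that were nearest to them was drawn up by the root mean square difference of centred log2 CPM from the mean profile of the tested genes over the 9 libraries, among 8031 genes with a mean CPM of at least 5 that had a gene name rather than a clone, Riken, predicted gene or pseudogene symbol. The nearest were Psmb8 (0.54) and Psmb9 (0.55), catalytic subunits of the immunoproteasome, and then the interferon-inducible genes Ifi47 (0.85), Igtp (0.89) and Ifitm3 (0.90). Tap1 (0.92), a subunit of the peptide transporter of class I presentation, Piga (1.07), which acts in GPI anchor synthesis, and Tapbpl (1.08), a class I peptide editor, completed the 8, against a median of 1.68 over all candidates. The tested genes themselves lay at 0.32 (H2-DMa) to 0.88 (Ciita) and Ctss at 1.65. Psmb8 was at 6.80, 11.4 and 23.7 CPM at KO day 4, at 81.2, 69.0 and 107 CPM at KO day 3 and at 35.4, 42.4 and 24.4 CPM in controls. Igtp, an interferon-inducible GTPase, was at 0.94, 3.98 and 4.25 CPM at KO day 4, at 42.0, 20.3 and 43.3 CPM at KO day 3 and at 5.24, 4.395 and 3.68 CPM in controls. Igtp and Tap1 rose at KO day 3 against control, by 2.98 (SE 0.44) and 2.19 (SE 0.37) on the log2 scale at edgeR adjusted p of 0.020 and 0.036. Between KO day 4 and KO day 3, 7 of the 8 fell and Piga did not pass (-1.20, SE 0.72). The 8 were picked for this likeness, so their direction is a description.

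Along chromosome 17 between the starts of H2-DMa and the end of H2-Eb1 (34119541 to 34316674) lie 11 protein-coding genes, 5 of which are not among the 9 genes, and 4 of these were tested. Psmb9, Tap1, Psmb8 and Tap2 stand next to each other between H2-DMb1 and H2-Ab1 and belong to class I presentation. Tap2, the other subunit of the transporter, was at 4.69, 9.22 and 10.97 CPM at KO day 4, at 13.4, 8.24 and 12.5 CPM at KO day 3 and at 6.48, 5.92 and 6.51 CPM in controls, and passed no test. Its log2 fold change at KO day 3 against control was 0.85 (SE 0.33), against 2.19 for Tap1 and 1.33 for Psmb8. Psmb9 and Tap1 overlap on opposite strands, so some of their reads cannot be told apart.

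**Figure D4:**
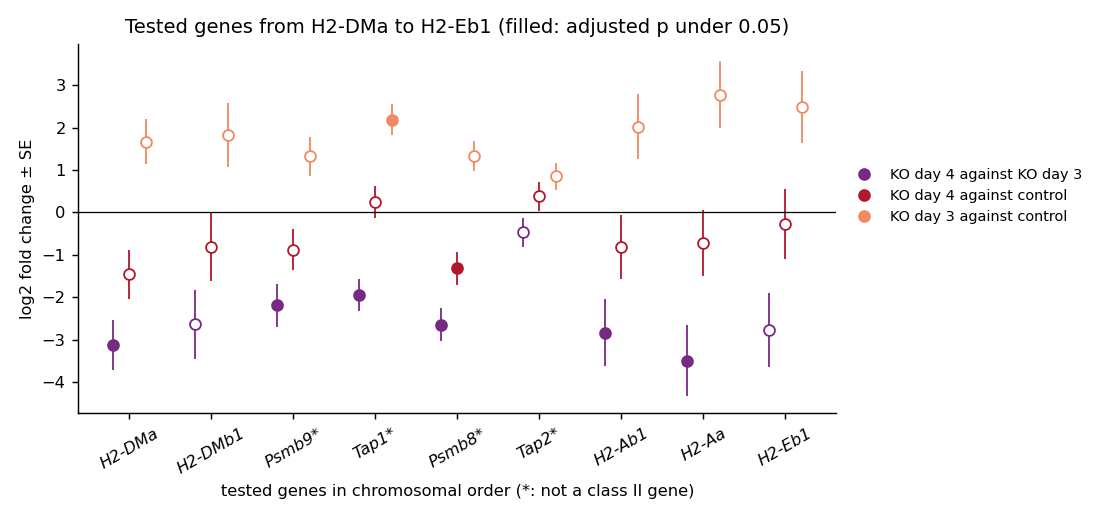
Log2 fold change with its standard error of the tested genes in chromosomal order from H2-DMa to H2-Eb1, for KO day 4 against KO day 3, KO day 4 against control and KO day 3 against control; asterisks mark genes that are not class II genes and filled points passed an adjusted p of 0.05. At KO day 3 against control all genes lie above 0, from 0.85 for Tap2 to 2.78 for H2-Aa, and Tap1 alone is filled.

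Other chains of the family were near absent. H2-Oa and H2-Ob, which make a modulator of H2-M, had at most 7 and 8 counts in a library, and H2-Eb2 had 14 counts in KO day 3 replicate 3 and 0 elsewhere. None of them was tested.

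The factors that bind the X and Y boxes gave no edgeR call over all 9 libraries, but some by DESeq2 and voom and some without the libraries that stood apart. Of 7 genes, all tested, 0 were called by edgeR in any of the 3 contrasts. At an unadjusted p under 0.05 there were 3 of 7 at KO day 4 against control, where 36.5% of all genes were, 1 of 7 at KO day 3 against control (15.8% of all genes) and 0 between the KO times (30% of all genes). DESeq2 called 1 (Nfyb higher), 0 and 0 in these contrasts and voom 1 (Nfyc higher), 1 (Rfxank lower) and 0. Without both libraries that stood apart, edgeR called Creb1 and Nfyc higher and Rfxank lower at KO day 4 against control and Creb1 higher at KO day 3 against control. In that fit 30.1% and 4.73% of all genes were called in these contrasts. Nfyb, a subunit of NF-Y, averaged 25.1 CPM at KO day 4, 23.0 at KO day 3 and 18.8 in controls. Creb1, which binds the X2 part of the X box, was at 37.7, 35.0 and 2.91 CPM at KO day 4, at 1.96, 29.3 and 29.7 CPM at KO day 3 and at 12.0, 18.2 and 18.5 CPM in controls. Its lowest values were in the libraries that stood apart, and every other KO library lay above the controls. The lowest value was that of Rfxank, an RFX subunit, with a log2 fold change of -1.39 (SE 0.63) at KO day 4 and -1.61 (SE 0.60) at KO day 3 against control, at averages of 2.08, 1.73 and 5.42 CPM in the 3 groups; it was singled out after its values were seen.

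Upstream of Ciita, the ligand was not detected, Jak1 rose at KO day 4 and Irf1 had its highest mean at KO day 3. Ifng had 0 counts in all 9 libraries, which allows up to 3 counts in each. Of the other 10 genes of the list, all tested, Jak1, a kinase of the receptor, rose at KO day 4 by 0.69 (SE 0.22, edgeR adjusted p = 0.047) on the log2 scale against control and by 0.77 (edgeR adjusted p = 0.046) against KO day 3. It was the only 1 called against control at KO day 4 (22.5% of all tested genes called), and between the KO times 1 gene was called higher and 1 lower (12.5% called). At KO day 3 against control 0 were called (0.44% called), and 3 had an unadjusted p under 0.05 (15.8% of all genes). There DESeq2 and voom each called 2 genes higher, Irf1 among them, with 6.53% and 10.6% of all genes called. Without KO day 4 replicate 3, Jak1 lost its calls. In that fit 2 genes of the list, Irf1 among them, were called higher at KO day 3 than in controls (2.49% of all genes called). Irf1 was also among 2 called lower at KO day 4 than at KO day 3 (7.29% called). Irf1, which binds the interferon-responsive promoter of Ciita, was at 19.8, 7.79 and 32.2 CPM at KO day 4, at 59.0, 25.5 and 45.5 CPM at KO day 3 and at 14.3 CPM in each control, and did not pass at KO day 3 against control (1.59, SE 0.42, edgeR adjusted p = 0.10). Socs1, a feedback inhibitor of the pathway, had 2.02 (SE 0.77) at KO day 4 and 1.81 (SE 0.74) at KO day 3 against control, and Jak2 had 0.65 (SE 0.27) and -0.04 (SE 0.26). The receptor chain Ifngr2 had -0.41 (SE 0.24) and -0.06 (SE 0.24).

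Endosomal enzymes of antigen processing split at KO day 4. Of 9 genes, all tested, 4 were called at KO day 4 against control, 5 between the KO times and 0 at KO day 3 against control. Of all tested genes 22.5%, 12.5% and 0.44% were called in these contrasts. At KO day 3 against control, 3 had an unadjusted p under 0.05 (15.8% of all genes). There DESeq2 and voom each called Ctsl, Lgmn and Sppl2a lower, with 6.53% and 10.6% of all genes called. Without KO day 4 replicate 3, Cst3 was not called at KO day 4 and Ctsl was called lower at KO day 3 against control. Ctsd, the aspartic protease cathepsin D, rose at KO day 4 against control (log2 fold change 0.95, SE 0.19, edgeR adjusted p = 0.0066). Ifi30, the thiol reductase GILT that opens disulphide bonds of antigens, fell (-0.79, SE 0.20, edgeR adjusted p = 0.016), as did cathepsin B, Ctsb (-0.68, SE 0.15, edgeR adjusted p = 0.0080), and the cathepsin inhibitor Cst3 (-0.64, SE 0.21, edgeR adjusted p = 0.048). Between KO day 4 and KO day 3, Ctsd (1.10), Ctsl (1.44) and Lgmn (1.91) rose, and Ifi30 (-1.04) and Ctsb (-0.82) fell. Ctsl, which can trim the invariant chain in place of Ctss in thymic epithelium, and Lgmn, an asparaginyl endopeptidase, thus moved opposite to Ctss between the KO times, but Ctsl was not called against control (0.41 at KO day 4, -1.04 at KO day 3).

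Of the genes that control surface class II and T cell help, few passed the filter on low counts. Of the turnover list, March8, a ubiquitin ligase that acts on membrane proteins, and Cd83 were tested and neither was called by edgeR in any contrast, at an unadjusted p under 0.05 in 1 case (March8 between the KO times), though March8 was called higher at KO day 4 than at KO day 3 by DESeq2, by voom and without KO day 4 replicate 3. At KO day 4 and KO day 3 against control March8 had 0.31 (SE 0.26) and -0.40 (SE 0.26). Of the costimulation list only Icosl passed the filter; it averaged 1.05 CPM at KO day 4, 2.06 at KO day 3 and 2.13 in controls and was not called by edgeR, DESeq2 or voom. Cd40 had at most 8 counts in a library, and Cd274, which codes for PD-L1, had 7, 9 and 31 counts at KO day 4, 2, 3 and 2 at KO day 3 and 4, 0 and 0 in controls.

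Class II can come from other cells in a sort, so markers of these cells were summed in every library, as CPM of nuclear counts. The summed level of the 9 class II genes was 92.2 to 930 at KO day 4, 1815 to 4006 at KO day 3 and 349 to 1417 in controls. In these bulk libraries fewer cells that make class II and less class II RNA per cell cannot be told apart. The 16 dendritic cell and macrophage markers summed to 40.1 to 113 at KO day 4, 7.27 to 29.6 at KO day 3 and 4.28 to 8.86 in controls. Of the 7 of these that were tested, 4 were called higher at KO day 4 against control and 0 at KO day 3, where 11.1% and 0.142% of all tested genes were called higher. At KO day 3, 3 had an unadjusted p under 0.05 (15.8% of all genes), and DESeq2 and voom each called 2, Cx3cr1 and Tyrobp. These 2 had 0 counts in controls and passed the filter through the KO libraries, so against control they could only be called higher. Xcr1, Batf3 and Cd209a, known from dendritic cells, had 0 counts in all libraries. Itgax and Flt3 had 0 in every KO day 3 and control library and 4 counts each over the KO day 4 libraries. Other genes of this list were detected in every group. Over the libraries of KO day 4, KO day 3 and control, Lyz2 had 368, 206 and 100 counts and Csf1r 52, 28 and 22. In the same order Adgre1 had 50, 23 and 3 counts and Zbtb46 had 5, 9 and 4.

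The 9 leukocyte and T cell markers summed to 57.2 to 161 at KO day 4, 2.70 to 29.5 at KO day 3 and 0.61 to 1.63 in controls. The same gene, not a T cell receptor gene, had the most counts of this list in every KO library. At KO day 4 the T cell markers Cd3e, Cd3g and Trac and also Nkg7 had 0 counts, and Cd8a had 1. Over the KO day 3 libraries Cd3e had 4 counts and Cd3g 9, and Trac, Nkg7 and Cd8a had 0. Over the controls Trac had 2 counts, and Cd3e, Cd3g, Nkg7 and Cd8a had 0. Ptprc, the pan-leukocyte antigen CD45, had 21, 36 and 49 counts at KO day 4, 23, 4 and 8 at KO day 3 and 0 in every control, where Cd74 had 13922 counts over the 3 libraries. The 8 B cell markers summed to 54.1 to 72.1 at KO day 4, 50.8 to 61.4 at KO day 3 and 50.7 to 60.9 in controls, almost all from Blnk, and Cd79a had at most 4 counts in a library. The 11 mast cell markers summed to 532 to 1541 at KO day 4, 23.0 to 199 at KO day 3 and 0.10 to 0.58 in controls. Of the 8 tested, 8 were called higher at KO day 4 against control and 5 at KO day 3, where 11.1% and 0.142% of all tested genes were. The whole list had 1 to 8 counts in a control library. These genes thus passed the filter through the KO libraries and could only be called higher than in controls. The 4 markers of innate lymphoid cells summed to 7.79 to 15.2 at KO day 4, 22.2 to 34.3 at KO day 3 and 38.8 to 54.0 in controls, and the 7 stromal and endothelial markers to 13.2 to 35.8, 0.98 to 2.27 and 0.29 to 2.02 in those groups. The same gene had the most counts of the stromal and endothelial list in each KO day 4 library, and Pdgfra and Cdh5 had 0 counts in all libraries. Class II and these markers had different orders over the groups: class II sums were highest at KO day 3, and the leukocyte, dendritic cell and mast cell sums at KO day 4. Within KO day 3 the leukocyte, dendritic cell and mast cell sums were highest in replicate 1, where class II was lowest, and within KO day 4 the class II, leukocyte, dendritic cell and mast cell sums were all highest in replicate 3. The part of other cells in the class II level was not tested in any group, and marker sums of bulk libraries cannot measure it.

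**Figure D5:**
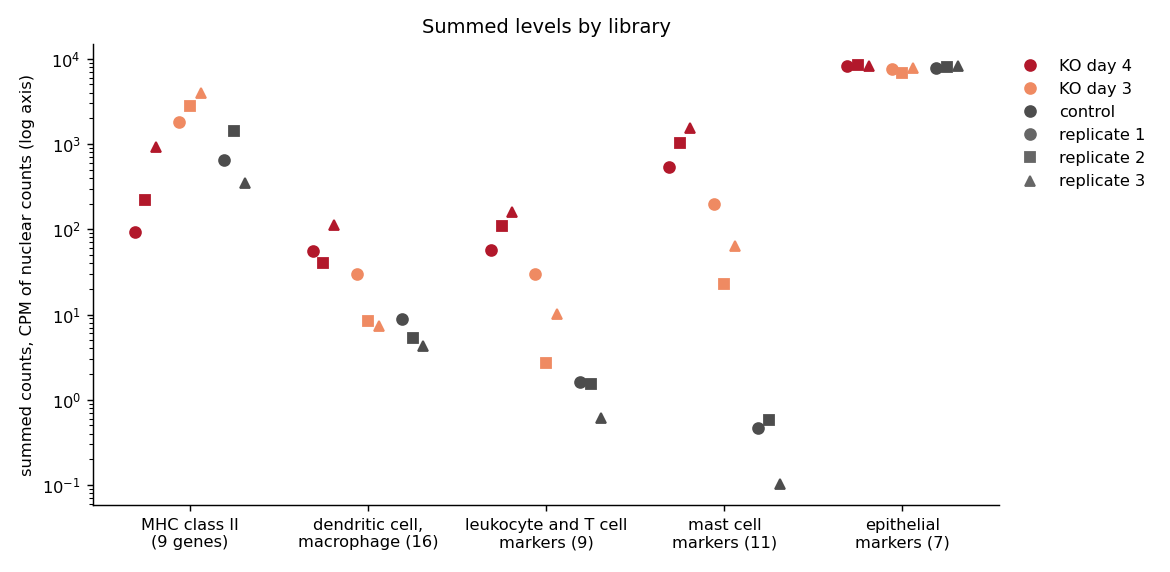
Summed counts of 5 gene lists (CPM of nuclear counts, log axis, number of genes in parentheses) in each library of KO day 4, KO day 3 and control, from left to right within each list; symbols mark the replicate number. The class II sum is highest at KO day 3, at 1815 to 4006, the dendritic cell, leukocyte and mast cell sums are highest at KO day 4, and the epithelial sum, which holds genes called in opposite directions, is between 6867 and 8429.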

How the data were processed

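The deposited table holds raw counts per Ensembl gene for 9 libraries, as the authors made it. HISAT2 2.0.4 and GRCm38 come from the submitters' processing notes; the sources used here do not state the counting tool, its strand setting or the annotation. Counts were tested with edgeR 4.0.16 in R 4.3.3 (filterByExpr with minimum counts of 10 per library and 15 in total, TMM, quasi-likelihood test, all 9 libraries in 1 fit by group), with Benjamini-Hochberg adjustment over 13405 genes at 0.05; the fit was checked on simulated data. Log2 CPM used a prior count of 2. Nuclear counts leave out mitochondrial genes and their nuclear pseudogene copies. The members and lists were chosen with earlier results of these data known. Named were all 9 members and, of each list, up to 4 genes with the smallest adjusted p at KO day 4 against control, or the 2 highest where none was called; Irf1, Rfxank, Ctsl, Lgmn and single low-count genes are outside this rule and were chosen after their values were seen. Some genes of the lists are not reported here. Alternatives were RLE and library-size scaling, mitochondrial genes left out, other filters, DESeq2 1.42.0, limma 3.58.1 voom, 2-group fits, a replicate block and libraries left out. Replicates of a group differed by more than sampling noise, with a chi-square of 12.8 to 89.2 per degree of freedom.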

Additional observations from a re-analysis of the deposited data

Results flagged for a closer look

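The effect against control differed between the KO times for 4 genes, by the test of KO day 4 against KO day 3, which is the difference of their log2 fold changes against the same controls. The difference was -3.50 for H2-Aa, -2.84 for H2-Ab1, -3.12 for H2-DMa and -1.47 for Ctss. H2-Aa, H2-Ab1 and H2-DMa had negative log2 fold changes against control at KO day 4 and positive ones at KO day 3, whereas Ctss was negative at both times.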

How the results depend on the processing

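Counts are of all genes, then of the 8 tested class II genes, first for KO day 4 against control, next between the KO times and last for KO day 3 against control, where the standard fit gave 3021 and 1, 1682 and 4, and 59 and 0. Library-size scaling gave 11057 and 8, 9508 and 8, and 518 and 1, and moved the median of all genes by -1.95, -1.54 and -0.39. Without a filter the class II counts were 2, 8 and 5, with 317 genes in the last contrast. DESeq2 gave 2879 genes in the middle contrast and 876 and 2 in the last; voom gave 7 class II genes in the middle contrast and 1423 and 8 in the last. Fits of 2 groups alone gave 806 and 2 in the middle contrast and 337 and 3 in the last. Without both libraries that stood apart the class II counts were 7, 7 and 6, with 4112 genes in the first contrast and 646 in the last. Leaving out each library in turn gave 1588 to 3839 and 1 to 6, 648 to 1802 and 1 to 7, and 0 to 345 and 0 to 3. Between groups, 9 pairs of libraries with equal replicate numbers correlated at -0.05 to 0.13 in their deviations from the group mean, 1 above 0.1. Weak correlations among so few libraries cannot tell whether the replicates were paired, which the labels do not state. The replicate block gave 2680 and 1, 1537 and 7, and 9 and 0. Single genes reversed only in KO day 4 against control: Cd74 0.26, H2-Eb1 0.47 and Ciita 0.13 without control replicate 2, H2-Eb1 0.25 and Ciita 0.13 without KO day 4 replicate 1, and H2-Eb1 0.14 and Ciita 0.12 without KO day 4 replicate 2. Over all alternatives these genes ranged from -2.54 to 0.26 (Cd74; -1.84 without KO day 4 replicate 3), -2.44 to 0.47 (H2-Eb1) and -4.27 to 0.13 (Ciita). The causes were not tested. The X core with a Y box anywhere was in 1 promoter window. The smallest KO day 4 counts, such as 30 for Ciita, limit the precision there.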
